A study of Mus musculus with 3 samples.

Results

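Stra8 RNA was found at embryonic day 12.5 (E12.5) in 213 of 4706 primordial germ cells, before the stage at which nearly all of them held it. The 213 cells were chosen by a single value, a deposited Stra8 level above 0, which means at least 1 unique molecular identifier (UMI, a tag that marks 1 captured RNA molecule). They are 213 of the 19144 cells of a series of 3 droplet libraries, which cover E12.5, E14.5 and also E16.5 with 1 library a stage. The labels call the source female primordial germ cells of C57BL/6 mice and the tissue fetal ovary. Per the series' design, all had been sorted as Oct4-EGFP-positive, so all carry a fluorescent reporter of Pou5f1 (Oct4), a pluripotency factor that germ cells keep, and no group was treated. No source used here gives the number of embryos in a library.

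Primordial germ cells are the embryonic precursors of eggs and sperm. In the fetal ovary they stop dividing by mitosis, shut down their pluripotency genes and enter meiosis, while in the fetal testis they arrest without entering it. STRA8 is a DNA-binding protein that acts with MEIOSIN to switch on meiotic genes at this transition. Retinoic acid induces its gene, and BMP signalling through the factor ZGLP1 drives the oogenic programme in parallel. REC8, a meiotic cohesin subunit, also answers to retinoic acid, and DAZL, an RNA-binding protein, makes germ cells competent to enter meiosis.

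Stra8 lies on the forward strand of chromosome 6 (GRCm38), from 34920163 to 34939344 in GENCODE M21. Its RefSeq start is further in, so the bases shown before that start lie inside the gene as GENCODE places it. The stretch of 250 bases before its RefSeq start is shown with the promoter of Zglp1, a transcription factor gene named above and among the largest ratios below, because the sequences 5' to 3' let the retinoic acid half-site AGGTCA be seen in both. The capitals mark AGGTCA on either strand and, in Zglp1, the E-box CACGTG, a site for basic helix-loop-helix proteins, which overlaps the half-site.

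Stra8, GRCm38.p6 chr6:34920698-34920947, forward strand: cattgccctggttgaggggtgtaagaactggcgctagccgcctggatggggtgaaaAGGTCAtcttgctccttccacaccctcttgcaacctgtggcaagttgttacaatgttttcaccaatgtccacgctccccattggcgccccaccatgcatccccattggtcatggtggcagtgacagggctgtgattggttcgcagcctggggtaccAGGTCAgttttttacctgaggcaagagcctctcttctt

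Zglp1, GRCm38.p6 chr9:21067094-21067343, reverse strand: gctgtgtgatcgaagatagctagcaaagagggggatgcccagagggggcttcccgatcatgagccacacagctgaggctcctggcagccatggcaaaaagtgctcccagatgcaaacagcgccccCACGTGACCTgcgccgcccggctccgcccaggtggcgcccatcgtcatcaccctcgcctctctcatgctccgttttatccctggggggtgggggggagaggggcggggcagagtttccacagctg

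In these RefSeq windows AGGTCA began 194 and 38 bases before the Stra8 start and 121 bases before the Zglp1 start, where the E-box began 125 bases before it. The same windows of Rec8, Smc1b and Dazl held neither these letters nor CNCCTCAG, a motif linked to STRA8 binding, and that of Sycp1 held only CACGTG, 94 bases before its start. No match says only that these letters are not in these windows.

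The threshold separated 1 UMI from none. Of the 213 cells, 132 held 1 Stra8 UMI, 39 held 2 and 42 held 3 or more, with 13 the most in any cell. The share was 4.53% of the E12.5 cells (exact binomial 95% interval 3.95 to 5.16%), and the library's 411 Stra8 UMIs came to 3.27 UMIs per 1000000 (CPM). At E14.5, 8797 of 9075 cells (96.9%) held Stra8, at 1439 CPM, and at E16.5, 2978 of 5363 cells (55.5%), at 273 CPM. Stage and library cannot be told apart, as each stage is 1 library.

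The E12.5 library goes against its female label in some cells. A UMI of a Y-linked gene (Eif2s3y, Uba1y, Ddx3y, Uty or Zfy1) was found in 667 of its 4706 cells, and no such UMI of Eif2s3y, Uba1y or Ddx3y was found in the later libraries. Stra8 was rarer in those cells. It was held by 7 of the 667 cells with a Y-linked UMI (1.05%, interval 0.423 to 2.15%, median depth 28430 UMIs) and by 206 of the 4039 without one (5.10%, interval 4.44 to 5.82%, median depth 26400 UMIs). Thinned to 15000 UMIs a cell, with 27 and 181 shallower cells left out, the shares were 0.469% and 3.42%. Among cells with 2 or more Y-linked UMIs it was 2 of 521 (0.384%). Male germ cells of this age are not known to express Stra8. The part of free RNA in any of these shares was not tested. A droplet barcode of the Stra8 cells also occurred in another library for 6 of the 213, 5 at E14.5 and 1 at E16.5, against 95 of the 4493 E12.5 cells without Stra8.

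The comparison set was 639 E12.5 cells at 0 Stra8 UMIs, the 3 nearest to each Stra8 cell in detected genes. Both sets had a median of 4766 genes. The Stra8 cells held a median of 27259 UMIs (5608 to 39307) and 5735794 in all, and the matched cells a median of 28567 (5605 to 46083) and 18087529 in all. Levels are CPM of the summed UMIs, and ratios set Stra8 cells over matched cells, with exact 95% intervals that cover counting error only. Cells of 1 library are not replicates, so no test was possible and no p-value is given; spread between embryos is not in these intervals. A Y-linked UMI was found in 7 of the 213 Stra8 cells (3.29%) and in 86 of the 639 matched cells (13.5%), so ratios without such cells, from 206 Stra8 cells and newly matched ones, are given beside the results that they move.

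The label of germ cells held for this set. All 213 cells had UMIs of at least 3 of 15 germ cell markers, with a median of 12, and Pou5f1, Dppa3 (Stella) and Dppa5a were found in every one. Dazl was found in 212 and Ddx4 (mouse vasa) in 202. Of 21 measured markers of pregranulosa cells, the supporting cells of the fetal ovary, Gata4, Nr5a1, Lgr5, Runx1 and Igfbp5 were at 0, and Wnt4, Wnt6, Fst, Wt1 and Amhr2 were between 0.174 and 1.74 CPM. The list's summed level was 103 CPM in Stra8 cells and 83.5 CPM in matched cells, most of it from Cdkn1c (52.1 and 38.2 CPM) and Krt18 (25.63 and 13.99 CPM). Fgfr2 (12.2 and 12.8 CPM) and Irx3 (5.06 and 5.75 CPM) added to it in both sets. At least 5 of these markers were found together in 1 Stra8 cell and 6 matched cells, and at least 3 in 48 of 213 Stra8 cells and 78 of 639 matched cells, with medians of 2 and 1 a cell. The part of pregranulosa RNA in the results was not tested beyond leaving out the cells with at least 5 markers. Of 7 Sertoli cell markers only 2 were measured, of which 1 was at 0 and the other at 0.174 CPM, and the 4 measured erythroid markers were at 0. Summed endothelial markers were at 77.8 CPM in Stra8 cells and 83.65 CPM in matched cells. Those of surface epithelium were at 23.2 and 26.6 CPM, and those of the mesonephros at 12.55 and 21.2 CPM. At least 3 endothelial markers were found together in 3 Stra8 cells and 15 matched cells.

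Meiotic genes were higher in the Stra8 cells than in matched cells, led by Rec8 and including Smc1b, Sycp1, Zglp1 and Dazl. Of 6956 genes that reached 10 CPM in the higher set, 247 (3.55%) were higher by 1.5-fold or more and 133 (1.91%) lower by as much. Against those shares, 8 of 16 such genes of the meiotic entry list were at least 1.5-fold higher and none lower. All 16 had a ratio above 1, beside 3861 of the 6956. The list's median log2 ratio was 0.60 (17 genes of at least 5 CPM; Stra8 is not a member), beside 0.04 for 8544 genes. Without cells with a Y-linked UMI, 187 genes were higher, 160 of them among the 247, and 124 lower, 92 of them among the 133; the meiotic entry list then had 6 higher and a median of 0.51.

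Rec8 had the largest ratio of the genes named. Its level was 30.0 CPM in the Stra8 cells (interval 25.7 to 34.8) and 7.85 CPM in matched cells (6.61 to 9.25), a ratio of 3.82 (3.04 to 4.80) and of 3.61 (2.87 to 4.53) without cells with a Y-linked UMI. Per cell it ranged from 0 to 6 UMIs with a median of 0 in Stra8 cells, and from 0 to 4 with a median of 0 in matched cells, so the sets overlap and most cells of either held none. A Rec8 UMI was found in 98 of 213 Stra8 cells (46.01%) and 122 of 639 matched cells (19.09%), and in 31.2% and 13.5% after thinning to 15000 UMIs, with 11 and 31 shallower cells left out. Smc1b, the meiotic partner of REC8 in the cohesin ring, stood at 269 CPM against 129 CPM, a ratio of 2.08 (1.95 to 2.22). Stag3, another meiotic cohesin subunit, was less different, at 42.0 and 30.2 CPM (ratio 1.39).

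Zglp1 was at 133 CPM in Stra8 cells and 64.9 CPM in matched cells, a ratio of 2.05 (1.87 to 2.25) and of 1.86 (1.70 to 2.04) without cells with a Y-linked UMI. It was found in 200 Stra8 cells (93.9%; 82.7% thinned), with 0 to 11 UMIs and a median of 3 a cell, and in 456 matched cells (71.4%; 54.6% thinned), with 0 to 11 and a median of 1. The ranges are equal, and the sets differ both in how many cells hold any UMI and in the median. Dazl was at 813 CPM against 449 CPM (ratio 1.81, interval 1.75 to 1.88). Gm4969, the gene of MEIOSIN, was at the edge of detection, with UMIs in 3 Stra8 cells (1.41%) and 5 matched cells (0.782%), and its ratio of 1.89 has an interval from 0.294 to 9.73. The other listed entry genes past 1.5-fold were Dmrt1, a transcription factor of the early germ line (59.5 and 36.6 CPM), Rbm44 (21.6 and 11.9 CPM), Tex101 (14.1 and 9.34 CPM) and Ythdc2, a helicase that binds meiotic transcripts (13.95 and 9.01 CPM). Hormad2, which marks unsynapsed chromosome axes, had the lowest ratio of the list at 1.15 (0.897 to 1.47).

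**Figure D1:**
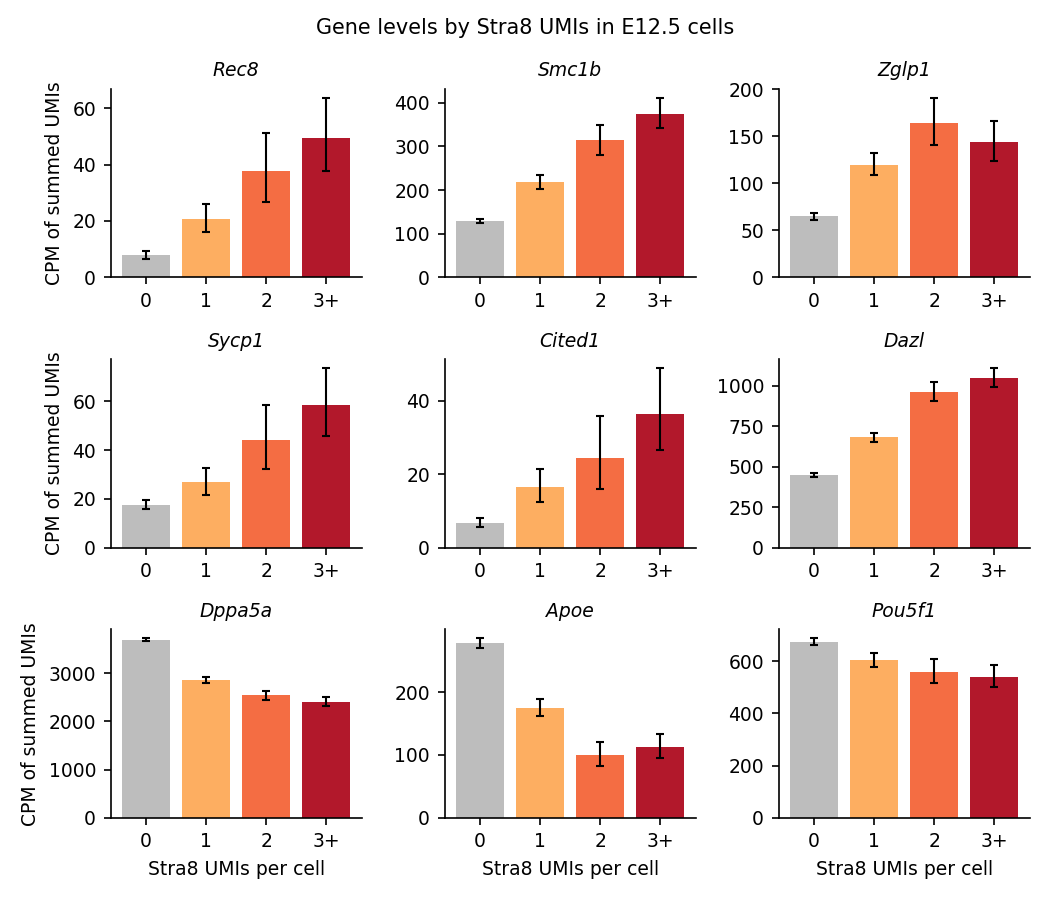
Levels of 9 genes (CPM of summed UMIs, vertical axes from 0, scaled per gene) in matched E12.5 cells with 0 Stra8 UMIs (639 cells) and in cells with 1 (132), 2 (39) and 3 or more (42). Bars are 95% intervals for counting error only. Rec8, Smc1b, Sycp1, Cited1 and Dazl are higher at each step up, and Dppa5a and Pou5f1 are lower at each step; neighbouring intervals can overlap.

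Among the 213 cells the levels of some genes moved with the number of Stra8 UMIs, the value that chose the cells. Rec8 was at 20.6 CPM in cells with 1 Stra8 UMI, 37.6 CPM in those with 2 and 49.5 CPM in those with 3 or more, beside 7.85 CPM in matched cells. Smc1b went from 218 to 314 to 375 CPM, Dazl from 681 to 964 to 1050 CPM, and Sycp1 from 26.8 to 44.1 to 58.5 CPM. The plot of levels by Stra8 UMIs shows that the cells with a single UMI already differed from the matched cells in these 4 genes, with intervals that do not meet. Zglp1 did not keep this order: it was 120 CPM, then 164 CPM (interval 141 to 191), then 144 CPM (123 to 167), and the last intervals overlap. Nor did some genes described below: Dmc1 was at 14.8, 16.9 and 8.12 CPM and Krt18 at 20.1, 40.4 and 28.4 CPM. C1ql1, Ckap4 and Asap2 did not rise at each step either.

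Genes of the synaptonemal complex, the protein scaffold that joins paired chromosomes, and of meiotic cohesin were also above matched cells in all 14 members of at least 10 CPM, 3 of them past 1.5-fold (Rec8, Sycp1 and Smc1b) and none lower. The list's median log2 ratio was 0.43. Rec8 and Smc1b are also members of the meiotic entry list, so the 2 lists are not separate results. Of all 6956 genes, 3861 had a ratio above 1. Sycp1, the filament that spans the complex, was at 36.8 CPM against 17.6 CPM (ratio 2.09, interval 1.74 to 2.49), and was found in 51.6% of Stra8 cells and 32.7% of matched cells (40.6% and 19.9% thinned). Sycp3, part of the chromosome axis, was at 56.0 CPM against 40.5 CPM (ratio 1.38, interval 1.21 to 1.58). Syce2, a central element protein, and Smc3, a cohesin subunit that dividing cells also use, had ratios of 1.13 (1.08 to 1.18) and 1.15 (1.10 to 1.21). Trip13, which removes HORMA proteins from axes, stood at 52.0 and 51.2 CPM.

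Of the genes that cut and repair DNA in meiotic recombination, 9 passed 10 CPM, and 2 of them were past 1.5-fold higher. Dmc1, the meiotic recombinase, was at 13.8 CPM against 7.46 CPM (ratio 1.85, interval 1.38 to 2.45), and Hsf2bp, which works with BRCA2, at 66.8 CPM against 44.4 CPM. Dmc1 was found in 30.1% of Stra8 cells and 17.8% of matched cells, or 19.8% and 10.9% thinned. Spo11, the enzyme that makes the breaks, was at 2.62 and 2.10 CPM and Prdm9, which places them, at 1.22 and 0.387 CPM, too low to be compared.

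**Figure D2:**
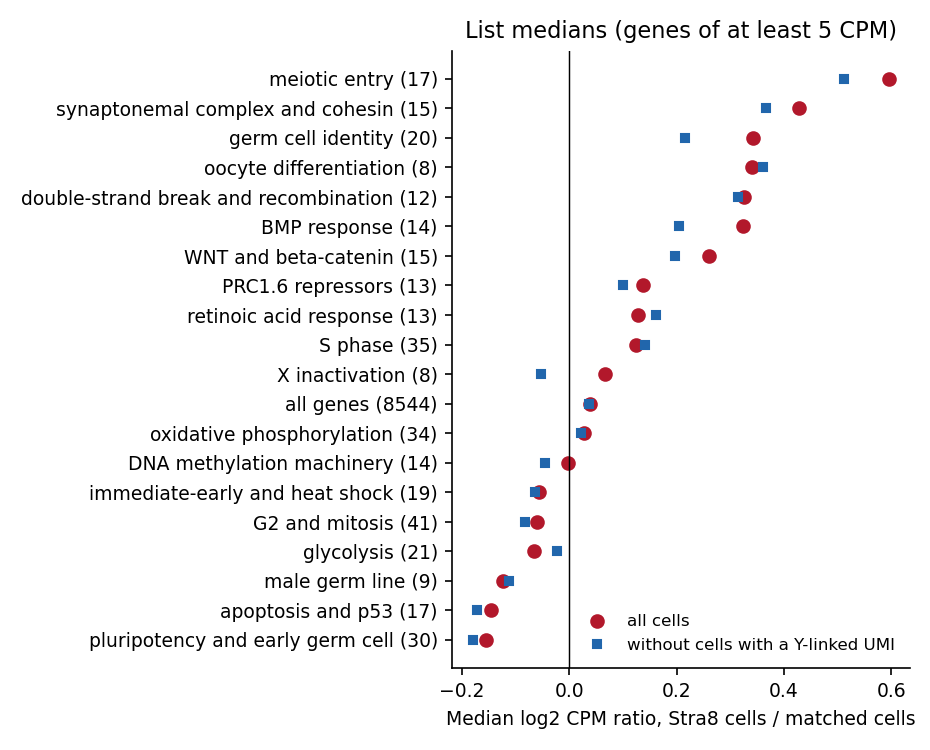
Median log2 CPM ratio of Stra8 cells over matched E12.5 cells for 19 gene lists and for all genes, with the number of genes of at least 5 CPM in brackets, using all cells (circles) and without cells with a Y-linked UMI (squares). Of the 19 lists drawn, the meiotic entry list is highest, at 0.60 and 0.51, and the pluripotency list lowest, at -0.15 and -0.18. The apoptosis and p53 list is close to the lowest, at -0.15 and -0.17, as is the male germ line list, at -0.12 and -0.11. The Y-linked list is not drawn.

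The retinoic acid list, which holds receptors, carriers, enzymes and response genes, had 3 of 11 members past 1.5-fold higher and a median of 0.13, which ranged from -0.03 to 0.31 over the alternatives (0.02 matched on total UMIs, 0.02 thinned and -0.03 with no matching). Without cells with a Y-linked UMI 3 members were past 1.5-fold higher and 1 lower. With all cells, the 3 higher members were Rec8, Crabp2, a carrier that brings retinoic acid to its receptors (18.3 and 8.46 CPM), and Rara, a receptor (14.6 and 9.40 CPM). Rxra, the partner receptor, was under 10 CPM in both sets (6.97 and 2.65 CPM), and Rarg was at 5.75 and 9.34 CPM. The Rhox5, Rhox6 and Rhox9 homeobox genes had ratios between 0.931 and 0.991. The pathway's members thus split between higher and lower, 7 and 4 of the 11, beside 3861 and 3095 of all 6956 genes.

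The BMP list had 4 of 13 members past 1.5-fold higher and a median of 0.32. They were Zglp1, Msx1, a homeobox factor of early meiosis (18.5 and 10.6 CPM), Id4, an inhibitor of helix-loop-helix factors (19.2 and 11.7 CPM), and Gata2 (57.0 and 36.2 CPM). Id1, the classical BMP target, was at 183 and 127 CPM (ratio 1.44, interval 1.34 to 1.55), and Id3 at 663 and 570 CPM. Smad7, an inhibitor of the pathway, was at 19.5 and 25.2 CPM. Without cells with a Y-linked UMI only 1 member of this list, Zglp1, stayed past 1.5-fold, Id1 had a ratio of 1.25 and the median was 0.20. In the WNT list 1 of 12 members was past 1.5-fold higher, Ccnd1 (cyclin D1), at 16.7 against 5.20 CPM (ratio 3.22, interval 2.40 to 4.33; 2.57 without cells with a Y-linked UMI). Lef1, a transcription factor of this pathway, was at 42.7 against 56.3 CPM.

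**Figure D3:**
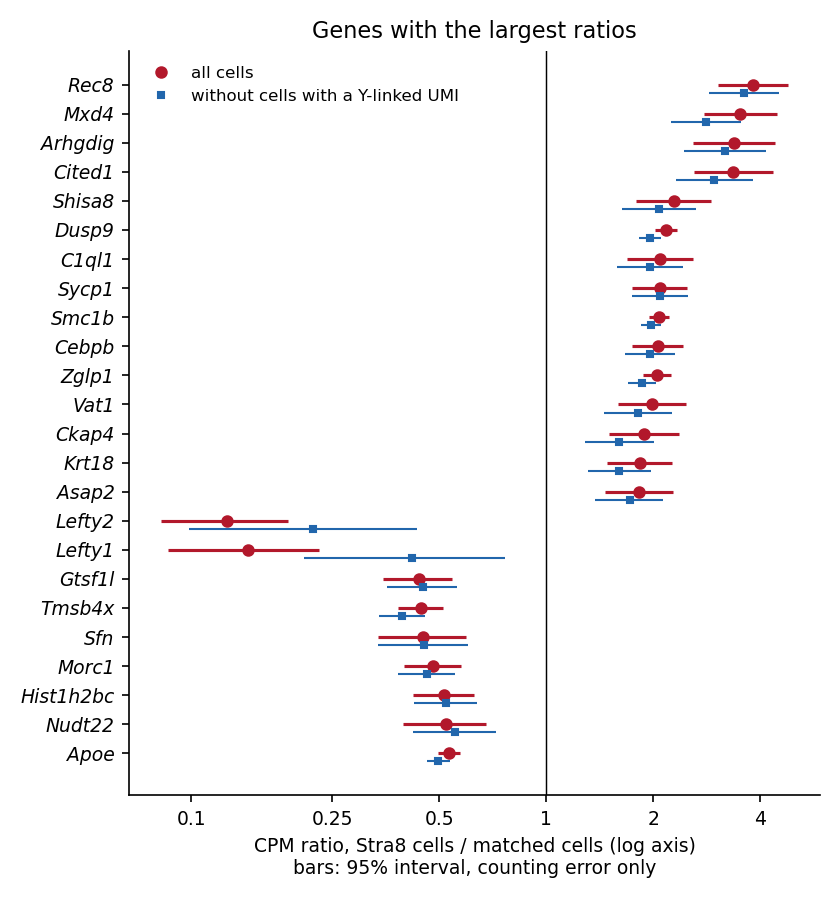
CPM ratio (log axis) of Stra8 cells over matched E12.5 cells for the 15 genes of largest ratio and 9 of the 10 of smallest ratio among those reaching 20 CPM in the higher set, with all cells (circles) and without cells with a Y-linked UMI (squares). Lines are 95% intervals for counting error only. Rec8 is highest at 3.82, and Lefty2 lowest, moving from 0.127 to 0.220 when cells with a Y-linked UMI are left out. Lefty2 and Lefty1 are then at 7.39 and 5.20 CPM in matched cells.

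Outside the meiotic lists, the largest ratios belonged to Mxd4, Arhgdig and Cited1. Mxd4, a partner of MAX that opposes MYC, was at 26.9 CPM against 7.63 CPM (ratio 3.52, interval 2.78 to 4.46; 2.82 without cells with a Y-linked UMI) and was found in 46.01% of Stra8 cells and 16.4% of matched cells (32.7% and 8.39% thinned). Arhgdig, an inhibitor of small GTPases, was at 20.9 CPM against 6.19 CPM. Cited1, a coactivator that binds CBP and p300, was at 22.3 CPM against 6.63 CPM, a ratio of 3.36 (2.60 to 4.35). Dusp9, a phosphatase that turns off MAP kinases, was the most abundant gene of this group, at 218 CPM against 101 CPM (ratio 2.17, interval 2.02 to 2.33). Cebpb, a leucine zipper transcription factor, was at 42.9 CPM against 20.8 CPM. Shisa8, C1ql1, Vat1, Ckap4, Krt18 and Asap2 made up the rest of the 15, with ratios from 1.83 to 2.28. Krt18, a keratin that pregranulosa cells also make, had a ratio of 1.70 without cells that carried at least 5 pregranulosa markers.

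With all cells, genes lower in the Stra8 cells were led by the NODAL antagonists Lefty2 and Lefty1. Lefty2 was at 4.53 CPM against 35.8 CPM, 7.90-fold lower (5.34 to 12.2), and Lefty1 at 3.31 CPM against 22.9 CPM, 6.93-fold lower (4.38 to 11.6). Both genes lie on the forward strand of chromosome 1 (GRCm38), Lefty2 at chr1:180893108-180899103 and Lefty1 at chr1:180935022-180938400. Their ratios were nearer 1 without cells with a Y-linked UMI: 0.220 (0.0986 to 0.432) for Lefty2 and 0.418 (0.208 to 0.767) for Lefty1. Their levels were then 1.63 against 7.39 CPM for Lefty2 and 2.17 against 5.20 CPM for Lefty1, under the floor of 10 CPM. A UMI of Lefty1 or Lefty2 was found in 23 of 213 Stra8 cells (10.8%) and in 181 of 639 matched cells (28.3%). Among all E12.5 cells without a Y-linked UMI, Stra8 was held by 19 of the 654 with a Lefty1 or Lefty2 UMI (2.91%, interval 1.76 to 4.50%), or 1.88% thinned. With all cells, Nodal itself was at 4.01 CPM against 10.9 CPM.

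The other genes of small ratio described here were Gtsf1l, Tmsb4x, Sfn, Morc1, Hist1h2bc, Nudt22 and Apoe. Gtsf1l, a relative of the piRNA factor GTSF1, was at 16.2 CPM against 37.1 CPM (2.29-fold lower, interval 1.84 to 2.87). Morc1, which silences transposons in the germ line, was at 23.9 CPM against 49.7 CPM (2.08-fold lower, interval 1.74 to 2.51). Apoe, a lipid carrier, was at 148 CPM against 278 CPM (1.88-fold lower, interval 1.75 to 2.02), with 175 CPM in cells with 1 Stra8 UMI, 101 CPM with 2 and 113 CPM with 3 or more. Sfn (14-3-3 sigma) was at 9.94 CPM against 22.1 CPM. Tmsb4x, which binds actin, was 2.26-fold lower, and its 1531 UMIs in matched cells include 106 from the 6 cells with at least 5 pregranulosa markers; without such cells its ratio was 0.470. Xist, the RNA that silences an X chromosome, had 6 UMIs in the Stra8 cells and 119 in the matched cells, 48 of the 119 from those 6 cells, and a ratio of 0.248 (0.0884 to 0.566) without them.

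The pluripotency and early germ cell list was lower by a small amount in most members. Of 29 members of at least 10 CPM, 22 had a ratio below 1, beside 3095 of all 6956 genes. In the list 1 was past 1.5-fold higher and none past 1.5-fold lower. Its median log2 ratio was -0.15 (-0.18 without cells with a Y-linked UMI, where 1 was past 1.5-fold lower). Dppa5a, an RNA-binding protein of pluripotent cells, was at 2705 CPM against 3692 CPM (ratio 0.733, interval 0.720 to 0.746). Klf2, a factor of naive pluripotency, was at 154 CPM against 225 CPM (0.682, 0.634 to 0.734), and Nanog, a core pluripotency factor, at 44.3 CPM against 63.7 CPM. A Nanog UMI was found in 135 of 213 Stra8 cells (63.4%) and 522 of 639 matched cells (81.7%). Pou5f1, whose reporter selected all cells, was at 583 CPM against 675 CPM (0.864, 0.831 to 0.897). The member past 1.5-fold higher was Klf4 (11.7 and 5.86 CPM). Prdm14 (17.1 and 13.9 CPM) and Kit (51.6 and 45.6 CPM) were also above matched cells, but the interval of the Kit ratio (1.13, 0.989 to 1.295) includes 1.

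The germ cell identity list had 4 of 20 members past 1.5-fold higher and none lower: Dazl, Stk31 (140 and 84.5 CPM), Ddx25, an RNA helicase (ratio 1.73), and Slc25a31, the germ line carrier of ATP and ADP across the mitochondrial membrane (94.3 and 58.3 CPM). Ddx4 was at 168 and 122 CPM and Mael, a piRNA factor, at 72.5 and 48.5 CPM. Nanos3, which protects migrating germ cells, was at 32.1 and 34.9 CPM. Among oocyte factors 1 of 7 was past 1.5-fold higher, Sohlh2, a helix-loop-helix factor (69.4 and 42.9 CPM, ratio 1.62, interval 1.43 to 1.83), and the later factors Nobox, Lhx8 and Figla were between 0 and 2.09 CPM in both sets.

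Most genes of the S phase list and of the G2 and mitosis list differed by less than 1.5-fold. Ccnd1 (ratio 3.22), given above with the WNT genes, is in neither list. Of 33 S phase genes of at least 10 CPM 27 had a ratio above 1, beside 3861 of all 6956 genes. The S phase median log2 ratio was 0.13 and 1 gene was past 1.5-fold, Uhrf1, which guides maintenance DNA methylation (13.1 and 5.97 CPM). Hells, a chromatin remodeller, was at 616 and 423 CPM (ratio 1.46, interval 1.40 to 1.51) and Slbp, which binds histone messages, at 479 and 352 CPM. Of 41 genes of G2 and mitosis none was past 1.5-fold and the median was -0.06, with Cks2, a subunit of the cell cycle kinases, at 638 and 827 CPM and Ccnb1 (cyclin B1) at 324 and 405 CPM. No gene of the 34 of oxidative phosphorylation or of the 19 of glycolysis was past 1.5-fold. In the apoptosis and p53 list Sesn2, a stress-induced regulator of metabolism, was lower (7.15 and 16.5 CPM), and Bax, a killer of the BCL2 family, was at 400 and 484 CPM.

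**Figure D4:**
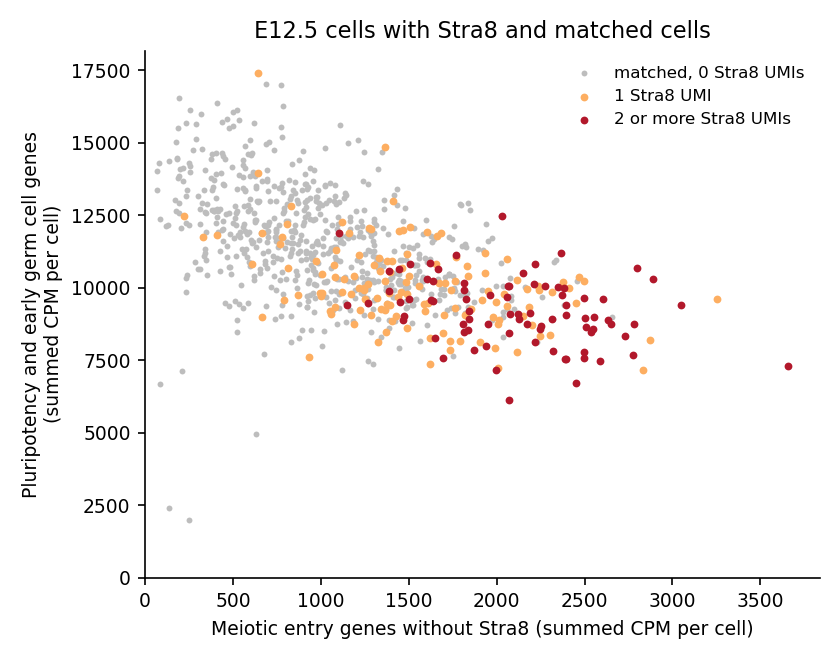
Each point is 1 E12.5 cell, placed by the summed CPM of the meiotic entry genes without Stra8 (horizontal) and of the pluripotency list (vertical): 639 matched cells, 132 cells with 1 Stra8 UMI and 81 with 2 or more. The Stra8 cells lie toward higher meiotic entry levels (median 1707 against 942 CPM) and lower pluripotency levels (9674 against 11550 CPM), with overlap.

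The difference held across most of the 213 cells rather than in a few. The summed level of the meiotic entry genes, Stra8 not counted, was 220 CPM in the lowest Stra8 cell, 1707 CPM at the median and 3659 CPM in the highest, against 65.8, 942 and 2658 CPM in matched cells. Of the Stra8 cells 197 (92.5%) lay above the median of the matched cells, and 195 (91.5%) did so when Dazl, the most abundant member, was not counted. The pluripotency level ran the other way: 23 of 213 (10.8%) lay above the matched median. That sum is weighted toward its most abundant member, Dppa5a (2705 CPM against 3692 CPM), and was not recalculated without it. The plot of single cells shows that the sets overlap on both axes, and 16 Stra8 cells lay at or below the matched median of the meiotic entry level. For S phase genes 145 of 213 lay above the matched median, for G2 and mitosis genes 83, and for oxidative phosphorylation 119.

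**Figure D5:**
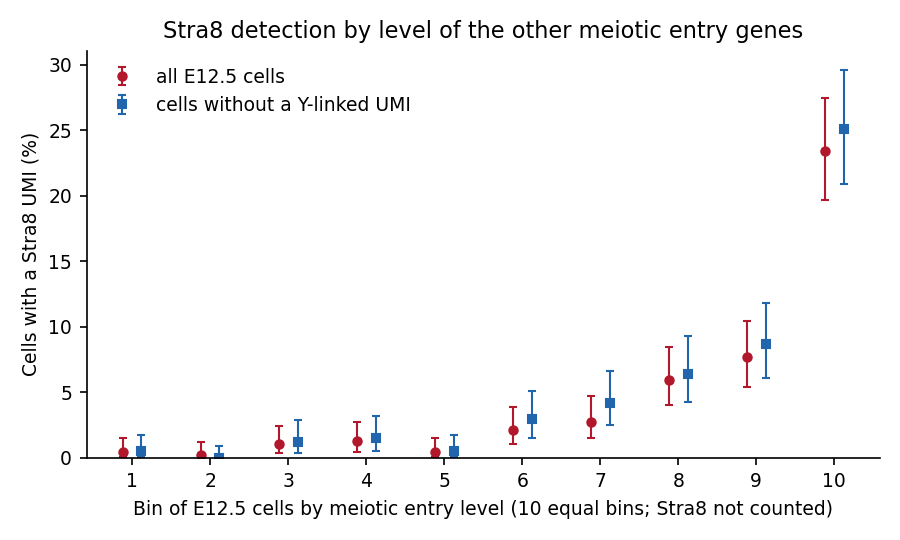
Share of cells with a Stra8 UMI (%) in 10 equal bins of E12.5 cells ranked on the summed CPM of the other meiotic entry genes, for all 4706 cells (circles) and for the 4039 without a Y-linked UMI (squares). Lines are exact binomial 95% intervals. The share is 0.425% in the lowest bin and 23.4% in the highest.

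The same relation can be described over the whole E12.5 library. It turns round the comparison above, uses the value that chose the cells and is no separate support for it. With the cells ranked by that level in 10 equal bins, 2 of 471 held Stra8 in the lowest (0.425%), 36 of 470 in the next to highest (7.66%), and 110 of 470 in the highest (23.4%, interval 19.7 to 27.5%). The highest bin held 63 of the 81 cells with 2 or more Stra8 UMIs. Its median depth was 26320 UMIs, against 24780 in the lowest bin and 28160 in bin 8. Without Dazl in the level, the highest bin held 105 of 470 (22.3%), and without cells with a Y-linked UMI 101 of 403 (25.1%). Even so, 360 of the 470 cells of the highest bin had no Stra8 UMI.

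Nearly all cells held Stra8 at E14.5, so the reverse comparison was made there: 519 cells with Stra8 matched to the 173 without it, and 2375 against 2375 at E16.5, leaving out cells with pregranulosa markers. At E14.5, 600 of 7492 genes (8.01%) were at least 1.5-fold higher in cells with Stra8, and at E16.5, 397 of 7535 (5.27%). Of the E12.5 genes, 38 of the 209 that could be tested were higher at E14.5 (18.2% of the E12.5 genes and 6.33% of the E14.5 genes), and 21 of 186 at E16.5 (11.3% and 5.29%). In the other direction, 9 of the 209 were lower by 1.5-fold or more at E14.5 (4.31%, against 9.06% of all genes there) and 14 of the 186 at E16.5 (7.53%, against 5.64%). Rec8 was among the higher genes at both stages. Its ratio was 3.62 (2.83 to 4.69) at E14.5, from 153 and 42.2 CPM, and 6.95 (5.65 to 8.63) at E16.5, from 24.3 and 3.495 CPM. Zglp1 was at 69.9 and 45.8 CPM at E14.5 (ratio 1.53, interval 1.19 to 1.98) and 22.3 and 15.8 CPM at E16.5 (1.41, 1.25 to 1.59). Sycp1 and Smc1b were not past 1.5-fold there: Sycp1 had ratios of 0.835 and 0.823 and Smc1b of 0.994 and 1.10. Morc1 was lower in cells with Stra8 in all 3 libraries, 2.32 against 13.9 CPM at E14.5 and 8.92 against 15.6 CPM at E16.5. Dppa3 and Pou5f1 went opposite ways in the later libraries, with ratios of 0.551 and 0.568 at E14.5 and 3.36 and 2.20 at E16.5.

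The promoter letters were also counted over the gene sets, in each listed RefSeq promoter sequence as a whole and not cut to the 250 bases shown above. Of the 247 genes higher in Stra8 cells, 192 matched a RefSeq promoter, and AGGTCA was in 15.6% of their promoters, CNCCTCAG in 10.1% and CACGTG in 12.5%, on either strand. Over the promoters of all tested genes the shares were 12.1%, 9.35% and 11.4%, and over every RefSeq promoter listed they were 16.3%, 7.94% and 7.15%. The genes lower in Stra8 cells had 16.7%, 6.06% and 10.6%. The half-site was thus in about as many promoters of lower genes as of higher genes, and these shares are a description of letters, not of binding.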

How the data were processed

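Single-cell RNA was measured with the 10x Genomics Chromium 3' version 2 kit, per the labels' protocols; Cell Ranger 2.0.0, FastQC and mm10 are named in the submitters' processing notes. The authors deposited natural log values, ln(1 + UMIs x 10000 / cell total), for 14133 genes and 19144 cells. Undoing the natural log gave whole UMIs (within 0.01) for 100.0% of 68606039 non-zero values, and these were summed per set of cells. No source used here gives the authors' filters. No count model was fitted. No doublet caller was run, so doublets may remain.

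Each of 213 Stra8 cells was matched without reuse to 3 cells on detected genes (seeded). Ratios have exact conditional intervals and shares exact binomial ones, at 95%, for counting error only. Genes needed 10 CPM in the higher set for counts at 1.5-fold, 5 CPM for list medians and 20 CPM to be named. Named were the 15 largest ratios and 10 smallest (mitochondrial, ribosomal, haemoglobin, Gm-number and Rik symbols left out), for each list its 3 most abundant members and its largest and smallest ratio, and 7 preset genes. A few genes that the rule names are not reported here. Other list members were named after their values were seen, mostly those past the fold. Members, lists and rules were chosen with earlier results of these data known. The ratio code was tested on simulated data. Positions are from GENCODE M21, promoters from RefSeq (GRCm38.p6). Python 3.11.15, numpy 2.4.6, scipy 1.17.1 and pandas 2.3.3 were used. Alternatives are given in the closing section; the matching seed was added after the data were seen.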

Additional observations from a re-analysis of the deposited data

How the results depend on the processing

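The counts of genes past 1.5-fold (247 higher, 133 lower) stayed within 1.5 times their value in 18 of 24 recalculations, which covered other matching, thinning, the mean over cells, and leaving out cells with a Y-linked UMI, with pregranulosa markers or with shared barcodes. They moved with the Stra8 threshold and the floor: 588 and 366 for cells with 2 or more Stra8 UMIs, 29 and 22 at a floor of 50 CPM (2783 genes), and 1383 and 944 with no floor but 10 UMIs (12360 genes). The genes behind these counts changed as well. Matched on total UMIs, 169 of the 247 higher and 97 of the 133 lower genes were called again. With 1 matched cell per Stra8 cell 187 and 97 were, thinned 184 and 90 (of 341 and 196 called), and by the mean over cells 212 and 116. The share of cells with Stra8 was 3.001% thinned to 15000 UMIs and 1.721% with 2 or more UMIs. List medians kept within the spread in 188 of 190 recalculations. The exceptions, both for cells with 2 or more Stra8 UMIs, were the male germ line list (-0.57) and the immediate-early and heat shock list (0.10). Named genes did so in 254 of 290. Rec8 ranged over log2 ratios of 1.69 to 2.61, Zglp1 0.90 to 1.25, Lefty1 -3.70 to -1.26 and Tmsb4x -1.96 to -0.73. No paired analysis was possible because each stage is 1 library and the labels give no replicate numbers. Depth limits Gm4969, Spo11 and Prdm9, which had few UMIs in either set.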

Other observations

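A few immediate-early genes were lower in the Stra8 cells. Of 15 members of the immediate-early and heat shock list of at least 10 CPM, 3 were at least 1.5-fold lower, beside 1.91% of all genes tested, and none higher: Junb, a subunit of the AP-1 factor, at 8.19 CPM against 15.9 CPM (ratio 0.516, interval 0.371 to 0.705), Jun at 6.80 against 11.4 CPM, and Btg2, an antiproliferative gene, at 8.37 against 14.5 CPM. Fos went the other way, at 34.7 against 23.5 CPM (1.48, 1.24 to 1.75). Junb had a ratio of 0.884 after thinning to 15000 UMIs and of 0.838 for cells with 2 or more Stra8 UMIs. The share of cells with a Junb UMI differed less than its level: 35 Stra8 cells (16.4%) and 123 matched cells (19.25%). The chaperone genes Hspa8 and Hsp90aa1, which every cell uses, had ratios of 0.998 and 1.08.

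Among 13 subunits of PRC1.6, the repressor complex that keeps germ line genes silent before meiosis, 1 was past 1.5-fold, Yaf2, at 20.1 against 12.3 CPM (1.63, 1.29 to 2.06). Its DNA-binding partner Max was at 54.2 against 68.0 CPM and Mga at 42.7 against 37.3 CPM. Of the DNA methylation genes, Dnmt1, the maintenance enzyme, was at 126 against 100.2 CPM, and the de novo enzymes Dnmt3a and Dnmt3b were at 13.6 against 11.8 CPM and 2.62 against 1.82 CPM. Tdg, a glycosylase of active demethylation, was at 17.8 against 24.4 CPM.

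Ldha, which turns pyruvate to lactate, was at 73.1 against 48.7 CPM and lay just under the fold used, with a ratio of 2.10 for cells with 2 or more Stra8 UMIs. Slc2a1, a glucose transporter, was at 13.6 against 20.4 CPM (0.668, 0.517 to 0.856).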
